A study of Mus musculus with 12 samples.

Results

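The ectodysplasin pathway was followed through 4 genes, the ligand gene Eda, the receptor genes Edar and Eda2r, and the adaptor gene Edaradd. They were found by matching Ensembl identifiers to symbols, which gave 4 genes of the 52636 in the count table. The glands were mouse salivary glands taken from the lower jaw at stage E13.5, grown on a membrane for 2 days, and measured as bulk RNA after ribosomal RNA depletion. Wild-type glands received DMSO, the solvent (n = 3), or 2.5 µM SU5402, an FGF receptor kinase inhibitor, hereafter FGFRi (n = 3). Glands from a K14Cre-Fgfr2b cross were wild type (WT, n = 2), heterozygous (HET, n = 2) or homozygous (HOM, n = 2) for the deletion, and the WT and HET glands were littermate controls; all 6 are labelled as untreated. In that cross the keratin 14 promoter drives Cre in epithelium, so the surrounding mesenchyme keeps the receptor gene. SU5402 by contrast was given to the whole explant. The labels do not say whether replicates came from separate embryos or litters, and the library names of a group share a leading number whose meaning is not given. The p-values therefore measure the spread between these libraries, which may be technical. By sex-linked genes DMSO replicate 2 was male and replicates 1 and 3 female, so the DMSO libraries were not all repeats of a single embryo.

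Ectodysplasin is a ligand of the tumour necrosis factor family that is made as a membrane protein and released by furin cleavage. A longer splice form binds Edar, which recruits the death-domain adaptor Edaradd and then TRAF and TAK1 proteins to release NF-kB; a shorter splice form binds Eda2r, an X-linked receptor that is also known as a target gene of p53. The pathway is best known from hypohidrotic ectodermal dysplasia, in which teeth, hair, sweat glands and salivary glands form poorly. In the embryonic salivary gland the ligand has been described in mesenchyme downstream of Wnt signals, and Edar in epithelium.

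Eda (ENSMUSG00000059327) and Eda2r (ENSMUSG00000034457) lie on chromosome X, Edar (ENSMUSG00000003227) on chromosome 10 and Edaradd (ENSMUSG00000095105) on chromosome 13. RefSeq windows of 300 bases around the annotated start (250 before it, 50 from it on) were available for 4 of the 4 genes on GRCm38.p6. The windows of Eda and Eda2r are printed because these genes had the largest changes under deletion and under the inhibitor, and because their start regions differ in base composition. Capitals mark the GC box, GGGCGG on either strand.
Eda promoter, chrX:99975356-99975655, plus strand: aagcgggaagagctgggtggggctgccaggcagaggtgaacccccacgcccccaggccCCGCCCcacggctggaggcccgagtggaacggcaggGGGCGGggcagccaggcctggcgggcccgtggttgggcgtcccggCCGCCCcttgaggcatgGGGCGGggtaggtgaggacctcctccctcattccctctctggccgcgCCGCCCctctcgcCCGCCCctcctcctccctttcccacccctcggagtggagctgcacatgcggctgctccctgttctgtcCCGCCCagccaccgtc
Eda2r promoter, chrX:97377160-97377459, minus strand: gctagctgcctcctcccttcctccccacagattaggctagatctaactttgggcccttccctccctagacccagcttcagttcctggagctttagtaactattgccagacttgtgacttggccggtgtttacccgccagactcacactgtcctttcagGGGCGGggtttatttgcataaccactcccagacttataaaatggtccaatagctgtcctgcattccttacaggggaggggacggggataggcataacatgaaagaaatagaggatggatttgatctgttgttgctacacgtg
The Eda window had 74.3% G+C, 22 CpG and 7 GC boxes. The Eda2r window had 50.3% G+C, 5 CpG and 1 GC box. Over all 32841 windows of this length the median was 52.7% G+C and 7 CpG, and 35.67% held at least 1 GC box. Neither printed window held the ETS core CCGGAA (14.9% of all windows), a TCF/LEF site spelled CTTTG and then a pair of bases that are each A or T (16.87%), the NF-kB consensus (8.46%) or the p53 half-site (8.36%), on either strand. The Edar window (chr10:58675647-58675946, minus strand) held 1 of these matches, a TCF/LEF site at base 18 of the window, and the Edaradd window (chr13:12520401-12520700, minus strand) held none.

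Library totals ran from 6043701 to 22322182 counts. The deletion itself could not be read from the counts: Fgfr2 whole-gene counts pool the deleted b isoform with the rest of the gene and stood at 99.2 to 101 CPM (counts scaled to a common library size) in WT, 86.2 to 99.9 in HET and 89.2 to 94.4 in HOM. Each of 16 epithelial and 9 mesenchymal marker genes was detected in each library. The summed epithelial markers were 3063 to 3561 CPM in DMSO, 2200 to 2499 in FGFRi, 3138 to 3264 in WT, 2685 to 2921 in HET and 2134 to 2245 in HOM. The summed mesenchymal markers were 1773 to 1898 CPM in DMSO, 3032 to 4361 in FGFRi, 1964 to 2034 in WT, 2850 to 3168 in HET and 3146 to 3287 in HOM. Under the inhibitor 16 of 16 epithelial markers fell and 9 of 9 mesenchymal markers rose. Separate lists of epithelial subtypes did not move alike there. Of 5 end bud markers 5 fell, of 5 duct markers 2 rose and 1 fell, and of 4 basal markers 1 rose. In HOM against WT and HET 9 of 16 epithelial markers fell and 6 of 9 mesenchymal markers rose. Of the subtype markers 1 of 5 end bud, 2 of 5 duct and 1 of 4 basal genes fell in HOM and 0 rose. In HET against WT 0 of 16 epithelial markers were called, while 3 of 9 mesenchymal and 5 of 10 tested skeletal muscle markers rose. Of all tested genes 10.7% were called lower and 9.73% higher under the inhibitor, and 2.44% and 3.44% in HOM. In HET against WT 1.22% were called in either direction. Summed skeletal muscle markers (11 genes) were 30.6 to 91.8 CPM in DMSO, 180 to 798 in FGFRi, 16.3 to 21.1 in WT, 114 to 216 in HET and 220 to 243 in HOM, and 5 of the 11, Myod1 and Myog among them, were at 0 in WT replicate 2. Summed glial markers (5 genes, each detected in each library) were 6.76 to 10.8 CPM in DMSO, 22.1 to 28.4 in FGFRi, 10.6 to 11.6 in WT, 12.9 to 14.9 in HET and 24.2 to 24.9 in HOM; 4 of the 5 rose under the inhibitor and 2 in HOM. By Xist and Y-linked genes, DMSO replicates 1 and 3, the 3 FGFRi and the 2 HOM libraries were female, and DMSO replicate 2 and the WT and HET libraries were male. Sex and homozygosity therefore cannot be told apart, and fewer cells of a type and less RNA per cell cannot be told apart in bulk RNA. Only DMSO held both sexes, so DMSO replicate 2 alone set each fit with sex as a covariate. For the inhibitor such a fit is not separate from leaving that library out. In HOM it does not separate sex from homozygosity. The part of tissue makeup in the results below was not tested.

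The ligand gene Eda was higher under the inhibitor and in homozygous glands. Its level was 6.69, 4.42 and 4.93 CPM in the 3 DMSO libraries and 9.54, 6.91 and 8.74 CPM in the 3 FGFRi libraries, on 30 to 246 counts per library over the whole series. The lowest FGFRi library was just above the highest DMSO library. The share of all tested genes whose groups separate, here or in the comparisons below, was not counted. Mean levels were 5.34 ± 1.19 CPM (SD, n = 3) in DMSO and 8.40 ± 1.35 CPM (SD, n = 3) in FGFRi, a log2 fold change of 0.69 ± 0.19 (SE; 1.61-fold; edgeR quasi-likelihood test, adjusted p = 0.0178). The call was lost without DMSO replicate 2, the male control, where the log2 fold change was 0.52 (adjusted p = 0.116), without FGFRi replicate 1 (0.64, adjusted p = 0.0556) and without FGFRi replicate 3 (0.64, adjusted p = 0.0605). It was lost likewise with sex as a covariate (0.52, adjusted p = 0.121), which is no separate loss because DMSO replicate 2 alone set that covariate. The call was also lost with library totals in place of TMM scaling (0.67, adjusted p = 0.104). Scaled to the mesenchymal markers, which moved the median of all tested genes by -0.96 on the log2 scale, the direction turned to -0.27 (adjusted p = 0.292).

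In the cross, Eda was 4.54 and 4.76 CPM in WT, 7.95 and 6.59 CPM in HET and 10.16 and 10.18 CPM in HOM. The HET libraries lay between WT and HOM, with 2 libraries per genotype. The share of all tested genes in such an order was not counted. HOM exceeded the mean of WT and HET by a log2 fold change of 0.81 ± 0.17 (SE; 1.75-fold; adjusted p = 0.0126). Set against HET alone, the log2 fold change was 0.48 (adjusted p = 0.322), and against WT alone it was 1.13 (adjusted p = 0.00502). HET exceeded WT by 0.65 ± 0.22 (SE) on the log2 scale, which did not pass (adjusted p = 0.205). The HOM call was also lost without either HOM library, at 0.81 (adjusted p = 0.0724) without replicate 1 and 0.80 (adjusted p = 0.158) without replicate 2, and with sex as a covariate, at 0.41 (adjusted p = 0.788), and with mesenchymal scaling, at 0.415 (adjusted p = 0.134). Gene-level counts do not separate the splice form that binds Edar from the one that binds Eda2r.

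**Figure D1:**
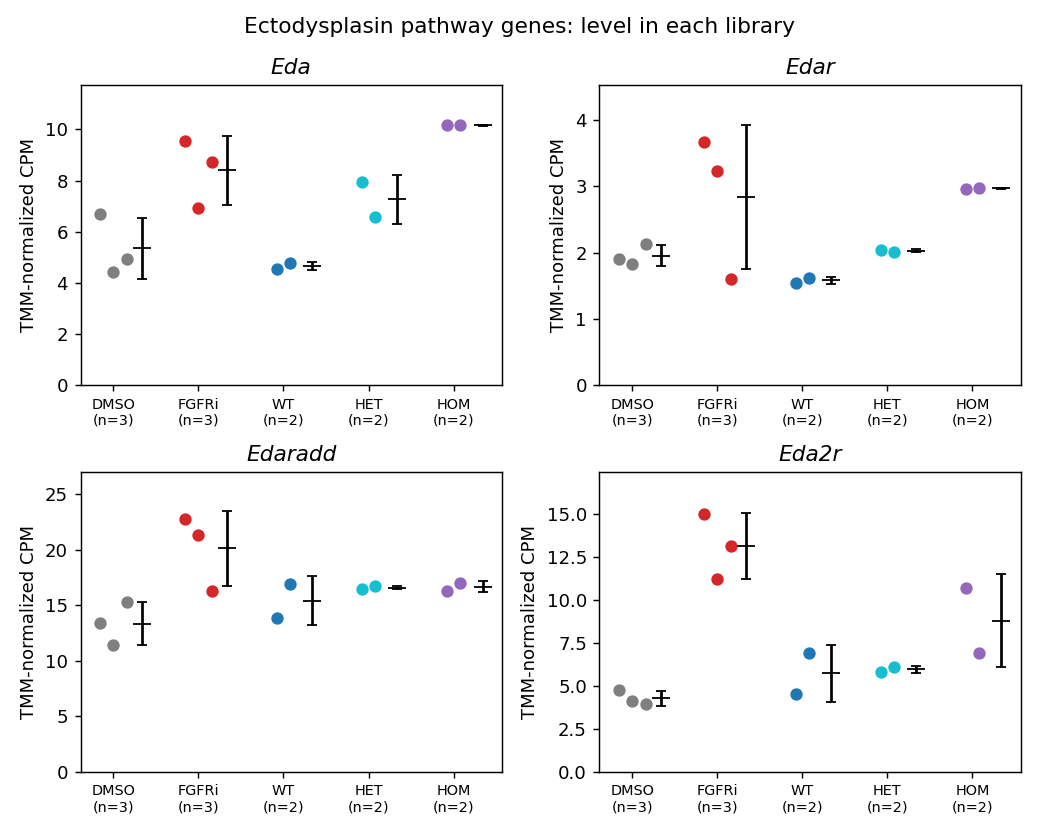
Level of Eda, Edar, Edaradd and Eda2r (TMM-normalized CPM, linear axis from 0) in each library of the 5 groups; points are libraries, and the bars beside them the group mean and SD. The 3 FGFRi libraries stand above the 3 DMSO libraries for Eda, Edaradd and Eda2r, while for Edar FGFRi replicate 3 (1.60 CPM) lies below them. The share of all tested genes whose groups separate was not counted.

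Eda2r, the X-linked receptor gene, had the largest change of the 4 genes under the inhibitor. It was at 4.78, 4.11 and 3.94 CPM in DMSO and at 15.0, 11.2 and 13.2 CPM in FGFRi. Each FGFRi library was more than 2 times any DMSO library. The means were 4.28 ± 0.441 CPM (SD, n = 3) and 13.1 ± 1.91 CPM (SD, n = 3), a log2 fold change of 1.62 ± 0.21 (SE; 3.07-fold; adjusted p = 1.32e-04). It passed under each of the 18 alternative settings run, with log2 fold changes from 0.66, under mesenchymal scaling, to 2.12. DMSO replicate 2, the male library, was at 4.11 CPM, between its female companions. For Eda (4.42 CPM), Edar (1.82 CPM) and Edaradd (11.4 CPM) it was the lowest DMSO library. With a lone male library in DMSO, the part of sex was not tested.

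In the cross, Eda2r was at 4.54 and 6.92 CPM in WT, 5.83 and 6.11 CPM in HET, and 10.7 and 6.91 CPM in HOM. HOM replicate 2 sat at the level of the higher WT library, so only HOM replicate 1 stood above the controls. The mean was 8.81 ± 2.69 CPM (SD, n = 2) in HOM against 5.85 ± 0.987 CPM (SD, n = 4) in WT and HET together, and the log2 fold change of 0.58 ± 0.20 (SE; 95% interval 0.15 to 1.01) did not pass (adjusted p = 0.113). It was 0.25 without HOM replicate 1 and 0.88 without HOM replicate 2, and passed with no filter on low counts (0.60, adjusted p = 0.0317) and with epithelial scaling (1.04, adjusted p = 0.00183).

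Edar, the receptor that couples to Edaradd, was the least abundant of the 4 genes, with 12 to 72 counts per library. Its level was 1.91, 1.82 and 2.13 CPM in DMSO and 3.67, 3.24 and 1.60 CPM in FGFRi. FGFRi replicates 1 and 2 were above the DMSO range and replicate 3 below it. The log2 fold change of 0.47 ± 0.33 (SE; 95% interval -0.23 to 1.17) did not pass (adjusted p = 0.353), and without FGFRi replicate 3 it was 0.83 (adjusted p = 0.0745). In the cross Edar was at 1.54 and 1.62 CPM in WT, 2.04 and 2.01 CPM in HET, and 2.96 and 2.98 CPM in HOM. The HET libraries again lay between WT and HOM, an order whose share among all tested genes was not counted. The HOM difference of 0.73 ± 0.31 (SE; 95% interval 0.069 to 1.39) on the log2 scale did not pass over all genes (adjusted p = 0.204). Scaled to the epithelial markers, whose sum fell in both comparisons, Edar passed in FGFRi (0.97, adjusted p = 0.0307) and in HOM (1.18, adjusted p = 0.00894). That scaling moved the median of all tested genes by 0.47 and 0.45 on the log2 scale.

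Edaradd, the adaptor gene, was higher under the inhibitor and showed no detected change in the cross. It was at 13.4, 11.4 and 15.3 CPM in DMSO and 22.8, 21.4 and 16.3 CPM in FGFRi. FGFRi replicate 3, the lowest of its group, was close to the highest DMSO library. The means were 13.4 ± 1.91 CPM (SD, n = 3) and 20.1 ± 3.42 CPM (SD, n = 3), a log2 fold change of 0.59 ± 0.15 (SE; 1.51-fold; adjusted p = 0.00956). The call was lost without DMSO replicate 2 (0.46, adjusted p = 0.0732) and with sex as a covariate, which that library alone set (0.46, adjusted p = 0.0732). It was also lost with library totals (0.60, adjusted p = 0.0645), and with scaling to the mesenchymal markers the direction turned to -0.38 (adjusted p = 0.0443). In the cross Edaradd was at 13.8 and 16.97 CPM in WT, 16.5 and 16.7 CPM in HET, and 16.3 and 17.05 CPM in HOM. The genotypes overlapped, and the log2 fold change in HOM was 0.068 ± 0.14 (SE; 95% interval -0.23 to 0.37; adjusted p = 0.859); with epithelial scaling it was 0.52 (adjusted p = 0.0199).

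Counted together, 3 of the 4 genes rose under the inhibitor, where 20.5% of all 15859 tested genes were called in either direction, 9.73% higher and 10.7% lower. In HOM 1 of the 4 rose, where 5.88% of tested genes were called, 3.44% higher and 2.44% lower. In HET against WT 0 of 4 were called by edgeR, DESeq2 or limma-voom, and 1 of 4, Eda, had an unadjusted p under 0.05. There 1.22% of tested genes were called, and 2144 of 15859 had an unadjusted p under 0.05. The DMSO and WT groups differ in solvent label and cross, and in sex, as DMSO replicates 1 and 3 were female and the WT libraries male. In DMSO against WT 0 of 4 were called by any of the 3 tools and 0 had an unadjusted p under 0.05, with 2.26% of tested genes called.

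**Figure D2:**
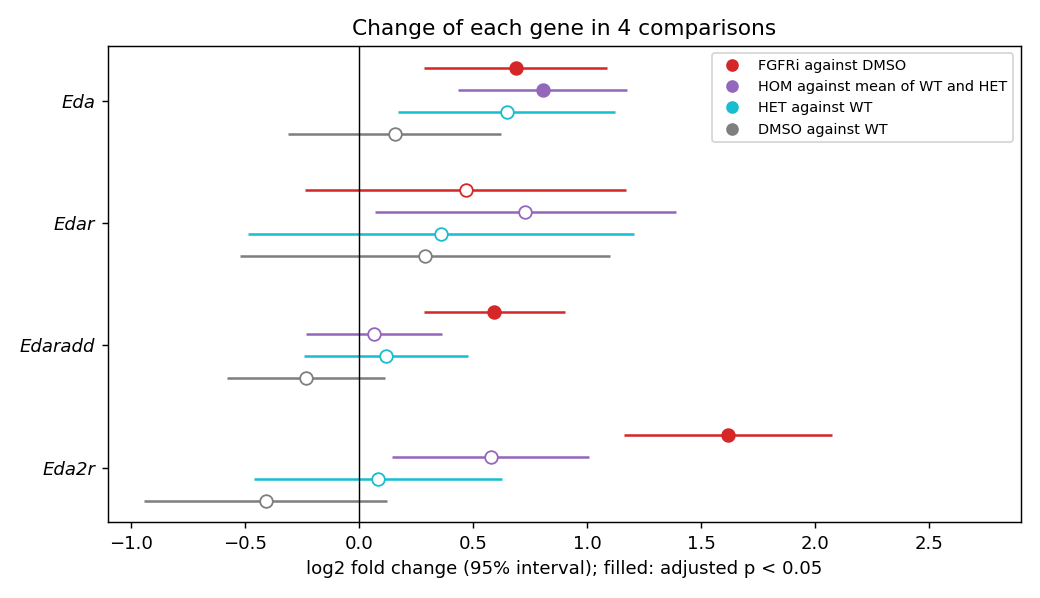
Log2 fold change (x axis) of Eda, Edar, Edaradd and Eda2r with its 95% interval (lines) in 4 comparisons, coloured by comparison, from the edgeR fit on all 12 libraries; filled points passed an adjusted p of 0.05. Eda2r under FGFRi (1.62) is the largest change, and Eda is the gene that passed under the inhibitor and in HOM.

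The effect of the inhibitor and the effect of homozygosity, which have separate controls, were compared by a test of their difference. It passed for 0 of the 4 genes by edgeR, DESeq2 or limma-voom, against 2.77% of all tested genes. By edgeR 2 of the 4, Eda2r and Edaradd, had an unadjusted p under 0.05, as did 2629 of all 15859 tested genes. For Eda2r the inhibitor effect was the larger, with a log2 excess of 1.04 ± 0.30 (SE; adjusted p = 0.0784). For Edaradd the excess was 0.53 ± 0.20 (SE; adjusted p = 0.193). The effects on Eda differed by -0.12 (95% interval -0.67 to 0.43) and those on Edar by -0.26 (95% interval -1.23 to 0.71). Without HOM replicate 1 the excess for Eda2r was 1.37 and passed (adjusted p = 0.0477).

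Levels between genes were compared per kilobase of merged exons. Edaradd was the most abundant, with group mean levels of 2.00 CPM per kb in DMSO, 3.02 in FGFRi, 2.31 in WT, 2.49 in HET and 2.50 in HOM. Edar had the lowest mean level in each of the 5 groups, at 0.538, 0.780, 0.434, 0.557 and 0.816 CPM per kb in the same order. Eda stood at 0.783, 1.23, 0.681, 1.07 and 1.49 CPM per kb and Eda2r at 0.726, 2.23, 0.972, 1.01 and 1.496 CPM per kb. The ranges of Eda and Eda2r overlapped in DMSO, HET and HOM, so these neighbours did not differ beyond their spread there; in FGFRi Eda2r overlapped with Edaradd instead. With the length of the longest transcript, the mean of Eda in HOM (1.99 CPM per kb) was above that of Eda2r (1.85).

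**Figure D3:**
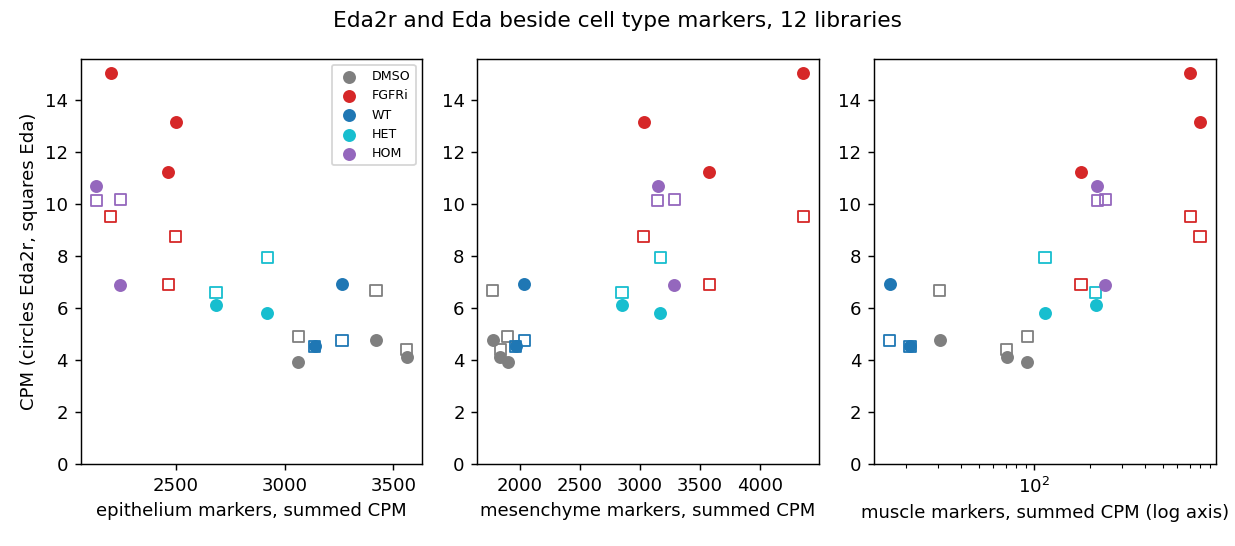
Levels of Eda2r (circles) and Eda (squares) in TMM-normalized CPM in the 12 libraries, against the summed CPM of the epithelial, mesenchymal and muscle markers (muscle on a log axis), coloured by group. The FGFRi and HOM libraries have lower epithelial sums (2134 to 2499 CPM) and higher mesenchymal and muscle sums than the DMSO and WT libraries, and HET lies between them in the epithelial sum (2685 to 2921 CPM).

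Across the 12 libraries the 4 genes correlated with each other at Pearson r from 0.558 to 0.781 on log2 levels, with the mesenchymal marker sum at 0.744 to 0.841, with the glial sum at 0.732 to 0.868, with the muscle sum at 0.552 to 0.762, with the basal epithelial sum at -0.272 to 0.26 and with the summed epithelial markers at -0.862 to -0.731. For Eda (0.868) and Eda2r (0.862) the glial sum gave the largest positive value of these. These values describe libraries that share groups, scaling and tissue makeup. Among 10380 genes with a mean of at least 5 CPM, the closest to Eda over the 12 libraries were Map1a (r = 0.941), which encodes a microtubule-associated protein, Islr (0.938), which encodes an immunoglobulin and leucine-rich repeat protein, and Flnc (0.933), the muscle filamin. The closest to Eda2r were Rbms3 (0.955), an RNA-binding protein gene, Lrch2 (0.947) and Lox (0.943), the collagen crosslinking enzyme. Those closest to Edaradd were Ssh2 (0.951), a cofilin phosphatase gene, Enpp2 (0.925), which encodes autotaxin, and Rai14 (0.922). Edar had Cpt1c (0.891), Sh3bp1 (0.889) and Mmp11 (0.850), a stromal metalloproteinase gene. Ranked by Spearman's rho instead, Map1a and Ssh2 remained among the 3 closest, and none of the 3 remained for Edar or Eda2r.

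The route downstream of the receptors runs through NF-kB. Of its 22 listed genes 21 were tested, from Furin through the TRAF, TAB and IKK genes to the NF-kB subunits and their inhibitors. Under the inhibitor 1 rose and 1 fell, where 9.73% of all tested genes were called higher and 10.7% lower, and the median log2 fold change was 0.0077, against -0.015 over all tested genes. The gene that rose was Tnfrsf19, a receptor related to Edar, from 15.9 to 17.7 CPM in DMSO to 20.4 to 26.2 CPM in FGFRi (0.48 ± 0.13, SE; adjusted p = 0.0132). The gene that fell was Rela, the p65 subunit of NF-kB, from 59.9 to 64.3 CPM to 48.4 to 52.2 CPM (-0.30 ± 0.08, SE; adjusted p = 0.0116). With library totals neither passed (0.51, adjusted p = 0.132 for Tnfrsf19 and -0.27, 0.565 for Rela), so that 0 of the 21 were called. Rela was also lost without DMSO replicate 2 (-0.28, adjusted p = 0.0514), with sex as a covariate, which that library alone set (-0.28, adjusted p = 0.0535), and without FGFRi replicate 1 (-0.24, 0.0786). With epithelial scaling Rela turned to 0.19 (adjusted p = 0.0752), and with mesenchymal scaling Tnfrsf19 turned to -0.47 (adjusted p = 0.0111). Nfkbia, an inhibitor of NF-kB that is itself an NF-kB target, had a log2 fold change of 0.25 ± 0.11 (SE; adjusted p = 0.115). In HOM 0 of the 21 passed by edgeR, DESeq2 or limma-voom, 3 had an unadjusted p under 0.05, and the median was -0.047. There 5.88% of all tested genes were called, and 3077 of 15859 had an unadjusted p under 0.05.

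Of 19 genes listed as Edar or NF-kB targets in skin appendages, 9 were tested. The other 10 had too few counts, with group means of at most 0.728 CPM. Shh, a target in several ectodermal organs, had 0 counts in 11 libraries, which allow levels of up to 0.156 to 0.551 CPM, and 2 counts in HOM replicate 2. Under the inhibitor 5 of the 9 rose and 0 fell, with a median of 0.60; over all tested genes 9.73% were called higher, and the median was -0.015. They were the Wnt ligand genes Wnt10a and Wnt10b, the chemokine gene Cxcl10, and Fst and Sostdc1, which encode secreted antagonists of activin and of BMP and Wnt. Wnt10b went from 0.364 to 0.493 CPM in DMSO to 1.28 to 1.62 CPM in FGFRi (1.79 ± 0.45, SE; adjusted p = 0.0111). Sostdc1 went from 40.0 to 58.4 CPM to 69.5 to 86.9 CPM (0.60 ± 0.12, SE; adjusted p = 0.00335). Fst went from 22.9 to 53.9 CPM to 67.6 to 74.3 CPM (0.76 ± 0.19, SE; adjusted p = 0.00893). The ranges of each of these genes did not overlap between groups, and the share of all tested genes with such ranges was not counted. Wnt10a, at 0.318 to 2.13 and 2.16 to 6.06 CPM, and Cxcl10, at 0 to 0.478 and 0.553 to 3.49 CPM, passed narrowly (adjusted p = 0.0495 for each), and DESeq2 called 4 of the 9 and limma-voom 3. The call of Wnt10a was lost without DMSO replicate 1 (1.05, adjusted p = 0.122) or 2 (1.72, 0.0723) and without FGFRi replicate 1 (1.14, 0.184) or 2 (1.37, 0.124). That of Cxcl10 was lost without DMSO replicate 2 (2.45, adjusted p = 0.182) or 3 (2.42, 0.105), and that of Wnt10b without DMSO replicate 2 (1.59, 0.0789). With sex as a covariate, which DMSO replicate 2 alone set, none of these 3 passed (adjusted p = 0.072 for Wnt10a, 0.0802 for Wnt10b and 0.183 for Cxcl10). With mesenchymal scaling none of the 5 passed: Wnt10a was 0.44 (adjusted p = 0.361), Wnt10b 0.87 (0.161) and Cxcl10 1.78 (0.0563), and the direction turned for Fst (-0.18, 0.386) and Sostdc1 (-0.35, 0.0681).

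Of the same 9 target genes 0 rose in HOM and 1 fell (2.44% of all tested genes were called lower), Ccn2, a matricellular protein gene, from 4.42 to 6.28 CPM in WT and HET to 2.80 and 3.27 CPM in HOM (-0.85 ± 0.19, SE; adjusted p = 0.0145). The call of Ccn2 was lost without WT replicate 1 (-0.80, adjusted p = 0.0605), HET replicate 1 (-0.71, 0.0519), HOM replicate 1 (-0.76, 0.0996) or HOM replicate 2 (-0.98, 0.122). It was also lost with library totals (-0.70, adjusted p = 0.214), epithelial scaling (-0.41, 0.0876), sex as a covariate (-0.89, 0.343) and HET alone as the control (-0.80, 0.0805). The list's median was -0.32, which is the value of Sostdc1, against 0.00055 over all tested genes. It was 0.0001 with HET alone as the control and -0.034 with sex as a covariate. Sostdc1 in HOM, at 42.8 and 44.2 CPM, lay inside the HET range of 39.2 to 47.9 CPM and below the WT range of 64.9 to 71.3 CPM. The excess of the inhibitor effect over the HOM effect passed for Sostdc1 (0.92 ± 0.18, SE; adjusted p = 0.0136) and Ccn2 (1.07 ± 0.25, SE; adjusted p = 0.0373).

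**Figure D4:**
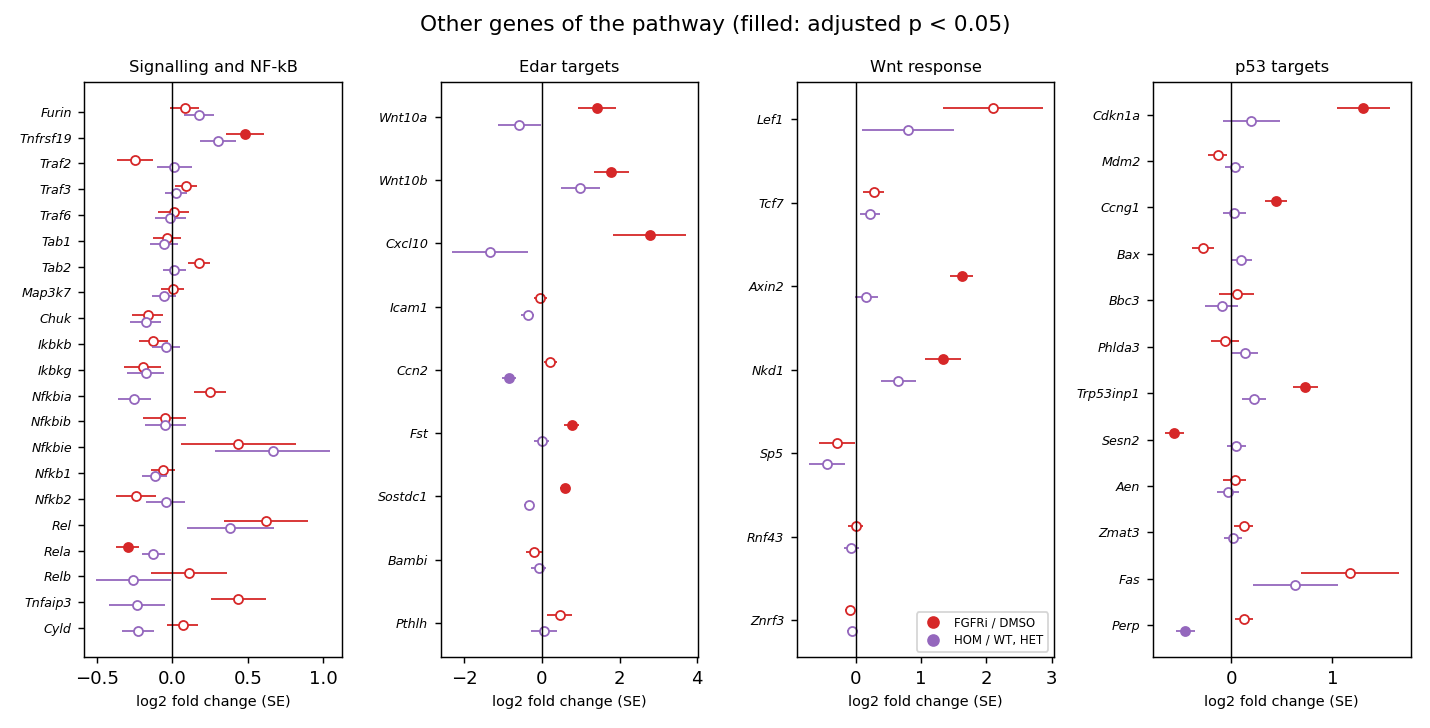
Log2 fold change with its SE of each tested gene of the 4 lists (signalling and NF-kB, Edar targets, Wnt response, p53 targets) under FGFRi and in HOM; filled points passed an adjusted p of 0.05. Of the tested target genes 5 of 9 are filled to the right under FGFRi, and 1 of 9, Ccn2, is filled to the left in HOM.

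Because Eda lies downstream of Wnt signals in the embryonic skin and gland, direct Wnt response genes were counted. Of 8 listed 7 were tested, 2 rose under the inhibitor and 0 fell, with a median of 0.28; of all tested genes 9.73% were called higher and 10.7% lower. Axin2, a feedback inhibitor of the pathway, went from 8.44 to 15.1 CPM in DMSO to 29.6 to 44.4 CPM in FGFRi (1.62 ± 0.18, SE; 3.08-fold; adjusted p = 3.03e-05). Nkd1, another feedback inhibitor, went from 2.07 to 5.10 CPM to 8.85 to 12.3 CPM (1.33 ± 0.28, SE; adjusted p = 0.00345); with mesenchymal scaling Nkd1 did not pass (0.40, adjusted p = 0.189). In HOM 0 of 7 passed by any of the 3 tools, 1 had an unadjusted p under 0.05 and the median was 0.16. Of all 15859 tested genes 5.88% were called in HOM and 3077 had an unadjusted p under 0.05. Axin2 in HOM was at 18.2 and 19.5 CPM against 14.5 to 19.5 CPM in WT and HET, and the difference between the inhibitor and HOM effects on Axin2 passed (1.46 ± 0.25, SE; adjusted p = 0.0068).

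For Eda2r, genes of the p53 response were counted likewise. All 12 listed genes were tested; 3 rose and 1 fell under the inhibitor, with a median of 0.089, where 20.5% of all tested genes were called, 9.73% higher and 10.7% lower. Cdkn1a, which encodes the cell cycle inhibitor p21, went from 10.5 to 21.2 CPM in DMSO to 26.4 to 44.8 CPM in FGFRi (1.30 ± 0.26, SE; adjusted p = 0.00295); with mesenchymal scaling it did not pass (0.31, adjusted p = 0.206). Trp53inp1 had a log2 fold change of 0.73 ± 0.12 (SE; adjusted p = 6.96e-04) and Ccng1 by 0.44 ± 0.11 (SE; adjusted p = 0.01); with mesenchymal scaling these 2 turned to -0.23 (0.222) and -0.52 (0.00369), and with library totals Ccng1 did not pass (0.45, 0.186). Sesn2, a stress-response gene, fell by 0.56 on the log2 scale (adjusted p = 8.73e-04), and did not pass with epithelial scaling (-0.083, adjusted p = 0.546) or library totals (-0.53, 0.106). Sesn2 was also called by edgeR in DMSO against WT (0.47, adjusted p = 0.027). Its means were 27.5 CPM in DMSO, 18.5 in FGFRi, 19.7 in WT, 21.0 in HET and 21.0 in HOM, so DMSO was the highest group. Mdm2, the p53 feedback inhibitor, had a log2 fold change of -0.13 ± 0.09 under the inhibitor (SE; adjusted p = 0.368). Of all tested genes 3.44% were called higher and 2.44% lower in HOM. In HOM 0 of 12 rose and 1 fell, Perp, a desmosome gene of epithelia, from 103 to 136 CPM to 81.5 and 88.2 CPM (-0.45 ± 0.09, SE; adjusted p = 0.0104); without HOM replicate 2 it did not pass (-0.40, adjusted p = 0.188). Nor did Perp pass with library totals (-0.31, adjusted p = 0.68), epithelial scaling (-0.0016, 0.993), sex as a covariate (-0.42, 0.461) or HET alone as the control (-0.31, 0.211). The inhibitor and HOM effects differed by -0.61 ± 0.13 (SE; adjusted p = 0.0267) for Sesn2 and by 0.58 ± 0.13 (SE; adjusted p = 0.0269) for Perp. In HET against WT 0 genes of the 4 lists were called by edgeR, where 1.22% of all tested genes were called. DESeq2 and limma-voom each called 1, a target gene. By edgeR 4 had an unadjusted p under 0.05, as did 2144 of all 15859 tested genes.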

How the data were processed

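The authors deposited 1 table of raw read counts per Ensembl gene for 12 libraries, with values that are whole numbers and not normalized. Per the submitters' processing notes the build was GRCm39 and the tools were bcl2fastq and STAR; no version is named, and the sources used here do not name the counting program, its strand setting or the annotation. Per the labels' protocols, RNA was rRNA-depleted before library preparation. Symbols came from an Ensembl-based annotation of an older build for 52403 of 52636 identifiers. No exon of another gene overlapped those of the 4 genes in that annotation.

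Counts were fitted with edgeR 4.0.16 (R 4.3.3): TMM scaling, filterByExpr (minimum count 10, total 15), 1 coefficient for each group over all 12 libraries, and a quasi-likelihood F test for each of 5 contrasts, with Benjamini-Hochberg adjustment over 15859 genes and a threshold of 0.05. HOM was compared with the mean of the WT and HET coefficients. SEs were derived from the log2 fold change and its F. Levels are TMM-normalized CPM. Named genes are the 4 members, each list gene that passed in a main comparison, and the 3 closest genes to each member; Nfkbia, Mdm2, Shh and Foxi3 were added after their values were seen. The members and lists were chosen with earlier results of these data known. The fit was tested on simulated data. Alternatives were other scalings, filters, tools (DESeq2 1.42.0, limma 3.58.1), controls, a sex covariate, the replicate block and each library left out; the block with crossed WT numbers was added after seeing the data.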

Additional observations from a re-analysis of the deposited data

Results flagged for a closer look

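For 5 genes of the pathway lists the effect of the inhibitor and the effect of homozygosity differed by the edgeR test of the difference itself. They were 2 of 9 targets, 1 of 7 Wnt response genes, 2 of 12 p53 genes and 0 of 21 signalling genes, against 2.77% of all tested genes. In the same order DESeq2 called 1, 1, 1 and 0 genes and limma-voom 2, 1, 2 and 0. For list genes this difference was not run with other scalings, the sex covariate or libraries left out. The inhibitor effect exceeded the HOM effect by 1.459 on the log2 scale for Axin2 (adjusted p = 0.0068), 0.9248 for Sostdc1 (adjusted p = 0.0136), 1.068 for Ccn2 (adjusted p = 0.0373) and 0.5838 for Perp (adjusted p = 0.0269). For Sesn2 the difference was -0.6081 (adjusted p = 0.0267), and this gene was also called higher in DMSO than in WT (0.47, adjusted p = 0.027). None of the 4 members passed this test, by edgeR, DESeq2 or limma-voom. No group had the 4 libraries needed to look for a library that stands apart.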

How the results depend on the processing

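Depth limits Edar most, with 12 to 72 counts per library. Eda2r under the inhibitor passed in each of 18 alternatives, Edaradd in 14 of the 18 in the same direction, Eda in 12 of the 18, and Eda in HOM in 16 of 21. Where a value changed, the cause was not tested.

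With library totals in place of TMM, the inhibitor log2 fold change was 0.6732 for Eda and 0.6046 for Edaradd, neither of which passed; 1303 genes were called for the inhibitor (1018 higher and 285 lower) and 169 for the difference of effects, and the HOM medians were 0.09461 for signalling and 0.1904 for p53 genes. Scaling to the epithelial markers called 9093 genes for the inhibitor, 9020 in HOM, 333 in HET and 214 for the difference, nearly all of them higher in the first pair. There Edar passed in both comparisons (0.9722 and 1.176), Edaradd (0.5154) and Eda2r (1.036) passed in HOM, and Rela under the inhibitor (0.1867) and Sostdc1 in HOM (0.1253) turned positive. The list medians there were 0.4998 (signalling), 1.083 (targets), 0.7543 (Wnt response) and 0.5729 (p53) for the inhibitor and 0.3964, 0.1253, 0.6072 and 0.493 for HOM.

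Scaling to the mesenchymal markers called 11794 genes for the inhibitor (231 higher and 11563 lower), 4553 in HOM, 8285 in HET and 4916 for the difference. Under it the inhibitor change turned negative for Eda (-0.2683), Edar (-0.5023), Edaradd (-0.3764), Tnfrsf19 (-0.4732), Fst (-0.1833), Sostdc1 (-0.3489), Ccn2 (-0.7286), Ccng1 (-0.5201), Trp53inp1 (-0.2264) and Perp (-0.8362). In HOM it turned for Edaradd (-0.3289), Axin2 (-0.2362) and Sesn2 (-0.345), and Eda (0.415) no longer passed. In HET it turned for Edar (-0.2264), Edaradd (-0.4708) and Eda2r (-0.5051), and for the difference of effects it turned for Edaradd (-0.04745). The list medians there were -0.9466 (signalling), -0.3489 (targets), -0.6725 (Wnt response) and -0.8562 (p53) for the inhibitor and -0.4493, -0.7198, -0.2362 and -0.349 for HOM.

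With no filter on low counts Eda2r passed in HOM (0.6023) and for the difference (1.019). The counts called were then 797 for DMSO against WT, 1003 for the difference, 655 for HET and 1449 for HOM, and the inhibitor medians 0.316 for targets and 0.7456 for Wnt response (0.7568 with DESeq2). Fitting only the groups compared called 1406 genes in HOM. With sex as a covariate Eda (0.5199) and Edaradd (0.4571) under the inhibitor and Eda in HOM (0.4125) no longer passed. DMSO replicate 2 alone set that covariate. Without this library Eda was 0.52 and Edaradd 0.4582 under the inhibitor, and 2161 genes were called there. Values that turned with that covariate were Eda in DMSO against WT (-0.06823) and for the difference (0.1074), and Edaradd (-0.253) and Sesn2 (-0.07741) in HOM. It called 2153 genes for the inhibitor and 46 in HOM, with HOM medians of 0.02523 (signalling), -0.03377 (targets) and -0.04398 (Wnt response). Against HET alone, Eda in HOM was 0.4819 and did not pass, Sostdc1 and the target median were 0.0001093, and 237 genes were called. With the length of the longest transcript, the mean level over the 12 libraries was 1.394 CPM per kb for Eda and 1.636 for Eda2r.

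Leaving out each library in turn gave 1896 to 3099 genes called for the inhibitor, 140 to 658 in HOM, 25 to 195 in HET against WT, 110 to 370 in DMSO against WT and 77 to 560 for the difference. Without a library of a group of 2, the lone library was taken to vary like the other groups. Eda ranged from 0.52 to 0.8564 under the inhibitor, 0.7415 to 0.8779 in HOM, -0.01168 to 0.3263 in DMSO against WT and -0.2869 to 0.05064 for the difference, where it turned positive without DMSO replicate 1 and without FGFRi replicate 2 (0.02152). Edaradd ranged from 0.4582 to 0.7547 under the inhibitor and from -0.04569 to 0.2417 in HET, and Eda2r from -0.2278 to 0.3721 in HET. For the difference, Edar ranged from -0.4492 to 0.09709 and Eda2r from 0.7321 to 1.365.

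Groups share replicate numbers, but no label says that a number marks a common embryo or litter, and the same-numbered libraries did not deviate together: their correlations were -0.092, -0.117 and -0.025 between DMSO and FGFRi, -0.126 between WT and HET, -0.147 between WT and HOM and -0.0436 between HET and HOM, and no DMSO library correlated best with the FGFRi library of its own number. With the replicate number as a block, 2837 genes were called for the inhibitor, 769 in HOM and 277 for the difference, and no call of the 4 members changed. With the WT numbers crossed in the block, 825 genes were called in HOM and 198 in HET.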

Other observations

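Foxi3, a forkhead gene known as an Edar target in skin appendages, did not reach the filter on low counts and was singled out after its values were seen. It had 12 counts in each HOM library (0.96 and 0.497 CPM), 1 and 0 counts in WT, 0 in each HET library, 1, 1 and 0 in DMSO, and 2, 3 and 0 in FGFRi. No test is given for it.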
